A study of Mus musculus with 6 samples.

Results

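Genes of 12 developmental families were examined in RAW 264.7 cells (also spelt RAW 264.4 in the labels), a mouse macrophage line, after 2 h of lipopolysaccharide (LPS, bacterial endotoxin). The families are the Hoxa, Hoxb, Hoxc and Hoxd clusters, Nkx, Pax, Sox, Lhx, Tbx and Gata on the side of transcription factors. Wnt and Fgf stand on the side of ligands, most of them secreted. Members were chosen by name: every probe whose only gene symbol in the platform annotation starts with one of these stems, followed by a digit for all but Nkx. The rule used no measured value, but it was chosen with earlier results of these data known. It gave 168 of 16281 probes, for 130 of 10698 named genes. A pair of probes annotated to both Hoxd9 and Hoxd10 was left out, because neither has a single symbol.

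Each of 6 arrays held RNA of cells given LPS at 100 ng/ml together with LPS-binding protein (LBP), which hands LPS to its receptor, at 100 pM, beside RNA of untreated cells cultured equally long. Treated RNA carried the red dye Cy5 on 3 arrays and the green dye Cy3 on the other 3, and the labels number both orientations as sets 1 to 3. Nothing in the labels says that sets were separate cultures, so p-values measure only the spread between these sets, which may be technical. LPS and LBP were given together on every array, and all cells come from 1 established line. Values below are log2 ratios of treated over untreated RNA, with the sign turned on arrays with treated RNA in Cy3, given as mean ± SD of the 3 set means (each set the mean of its 2 arrays).

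Hox, Pax, Sox, Lhx, Nkx, Tbx and Gata proteins bind DNA and set the identity of cells and body regions in the embryo, where each is made in restricted tissues. Wnt proteins signal through Frizzled receptors and LRP co-receptors to β-catenin or to other branches, and most Fgf proteins signal through receptor tyrosine kinases. Most are known from tissues other than macrophages, although Gata factors and several Hoxa and Hoxb genes also act in blood cell formation. The deposited values are ratios with no intensities beside them, so they do not show whether a member, or a macrophage marker, is transcribed in these cells. In such bulk RNA, fewer cells of a type and less RNA per cell cannot be told apart.

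The ratios were read as Cy5 over Cy3, partly because genes known to rise with LPS then come out higher, so their direction is no independent check. Of 10 such genes, the 9 measured on all arrays had the same sign on 6 of 6 arrays once the swapped ones were turned, from Ptgs2 at 1.32 ± 0.44 to Il1b at 3.98 ± 0.12. Exact zeros were taken as no measurement. A gene was tested when at least 1 of its probes had a value on all 6 arrays, and all such probes of the gene were averaged. This held for 126 probes and 111 of the 130 genes, among 11231 features tested in all. A gene was called when its limma p-value, adjusted over all 11231 features, was under 0.05. "Rose", "fell", "higher" and "lower" refer to that call.

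Few members were called. Among 111 tested, 2 rose and 4 fell, or 5.41%, against 14.8% of all features in either direction (7.35% higher and 7.45% lower). Members also varied more between the 3 sets (median SD 0.119, all features 0.0836), and a noisier gene is harder to call. Whether that lowered their share was not tested. Pax6 fell 1.90-fold, the Wnt ligand genes Wnt10a and Wnt10b rose 1.35-fold and 1.18-fold, the homeobox genes Hoxb7 and Hoxb13 fell 1.27-fold and 1.20-fold, and Fgf12 fell 1.16-fold. Without adjustment, at p under 0.05, 6 members were higher and 8 lower (5.41% and 7.21%, against 13.3% and 14.8% of all features). Counts moved when libraries were left out: 1 higher and 2 lower without set 1, 1 and 1 without set 3, and 0 or 1 higher and 1 to 3 lower without each single array. The shares of all features fell as well. They were 5.09% higher and 4.31% lower without set 1, and 3.13% and 1.88% without set 3. Without each single array they were 3.13% to 6.16% higher and 1.61% to 5.67% lower. The remaining 105 had means from -0.20 to 0.38, and none passed. Of all 111, 85 (76.6%) had a mean within 0.1 of zero, compared with 61.4% of all features, and their median was -0.00. A treated over untreated ratio of the same sign on 6 of 6 arrays was found for 5 members (4.50%), against 19.1% of all features. These were Pax6, Hoxb7, Wnt10a, Sox13 and Sox6. Wnt10a and Sox6 are means of 2 probes, and 1 Wnt10a probe and both Sox6 probes had at least 1 array below zero.

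**Figure D1:**
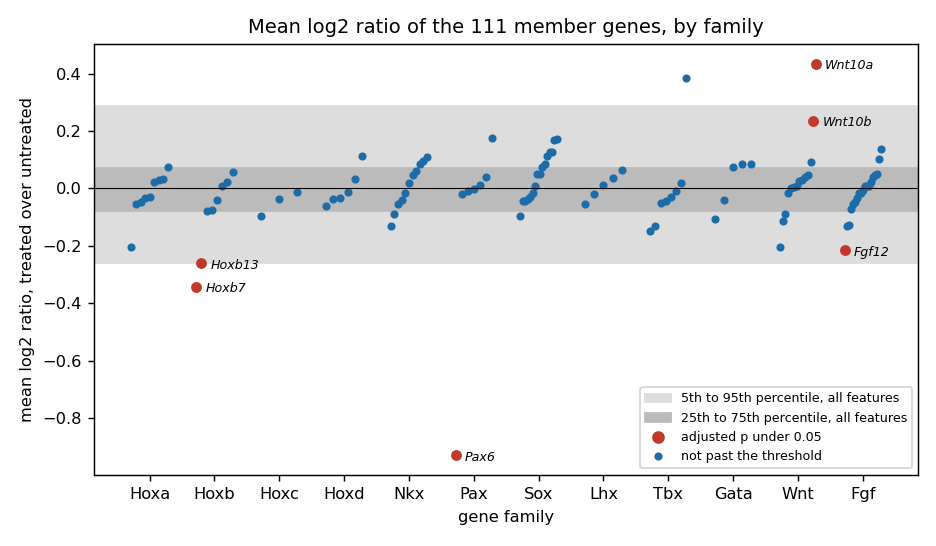
Mean log2 ratio of treated over untreated for the 111 member genes, by family. Each point is 1 gene, red where its adjusted p was under 0.05, and the grey bands hold the middle of all 11231 features (25th to 75th and 5th to 95th percentile). Pax6 stands apart at -0.93, and most other members lie inside the bands.

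Pax6, which encodes a paired-box factor of eye, brain and pancreas, had the largest change of any member. On the arrays with treated RNA in Cy5 sets 1, 2 and 3 had ratios of -1.05, -0.79 and -1.04. On the swapped arrays it was -1.08, -0.63 and -0.98. All 6 arrays were low and the dyes made little difference, with a mean lean to either channel of -0.03. The mean was -0.93 ± 0.19 (n = 3 sets, adjusted p = 0.000732), which is the 17th lowest mean among all features. It rests on 1 probe. Pax6 was past the threshold without any single set or array and in either dye orientation alone. Against a minimum change of 1.5-fold it did not pass (adjusted p = 0.136). In that test 0.151% of all features passed as lower.

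The other 6 tested Pax genes did not pass. Pax4, a factor of pancreatic islet development, was the highest at 0.17 ± 0.27 (adjusted p = 0.318). Pax2, Pax8, Pax9, Pax1 and Pax5, the last a B cell factor, lay between -0.02 and 0.04. Pax3 was listed at zero on every array, and Pax7 had a value on 1 array (0.08).

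Hox genes encode homeobox factors that lie in 4 clusters and pattern the body axis. Of 26 tested, 0 rose and 2 fell by limma, both in the Hoxb cluster, and 3 were lower and 0 higher at an unadjusted p under 0.05. The share called was 7.69%, against 14.8% of all features. Before adjustment 14.8% of all features were lower and 13.3% higher. The median of the 26 Hox genes was -0.03, against -0.00 over all features. Hoxb7 had ratios of -0.36, -0.30 and -0.27 on arrays of sets 1, 2 and 3 with treated RNA in Cy5, and of -0.44, -0.37 and -0.32 on the swapped ones. The 6 values were all low and close together, the tightest of the 6 called genes. The mean was -0.34 ± 0.05 (n = 3 sets, adjusted p = 0.00532). The adjusted p was 0.0590 without set 3, 0.0572 without the set 2 array with treated RNA in Cy5, and 0.0595 on arrays of that orientation alone.

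Hoxb13, the gene at the far end of the cluster, was less even. Its ratios with treated RNA in Cy5 were 0.12, -0.60 and -0.14, and on the swapped arrays -0.53, -0.19 and -0.22. Set 1 held both a value above zero and one of the lowest. The mean was -0.26 ± 0.12 (adjusted p = 0.0334). Leaving out any single set ended the call (adjusted p from 0.0673 to 0.137), as did leaving out each single array other than the unswapped one of set 3. With single arrays in place of set means it had adjusted p = 0.129 with the replicate block.

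Of the Hox genes that did not pass, Hoxa7 was the lowest, at -0.20 ± 0.15 (adjusted p = 0.0981), low on 5 of 6 arrays. Other Hoxb genes ran from -0.08 to 0.06: Hoxb8 was the highest at 0.06 ± 0.12. Tested Hoxa members besides Hoxa7 lay between -0.05 and 0.07 (Hoxa11), the 3 tested Hoxc genes between -0.10 (Hoxc9) and -0.01 (Hoxc4), and the tested Hoxd genes between -0.06 (Hoxd8) and 0.11 (Hoxd3). On fewer arrays, Hoxa3 (4 arrays) was at 0.13 and Hoxc8 (5 arrays) at -0.15. Antisense transcripts Hoxa11os and Hoxd3os1, included by their names, were at 0.02 and -0.01. Which strand a probe reads, and whether it tells Hox paralogs apart, was not tested.

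Sox genes encode HMG-box factors, and all 16 were tested with 0 higher and 0 lower by limma, while 2 were higher at an unadjusted p under 0.05. Over all features 14.8% were called, and 13.3% were higher before adjustment. Sox13 came closest. Its ratios were 0.24, 0.07 and 0.21 with treated RNA in Cy5 and 0.20, 0.21 and 0.11 on the swapped arrays, all above zero. The mean was 0.17 ± 0.04 (adjusted p = 0.0551). It did pass in the fits to single arrays, both with and without the replicate block. Sox6 followed, at 0.13 ± 0.05 (adjusted p = 0.134), as the mean of a probe at 0.21 and another at 0.05. The first of them passed when each probe was tested by itself. Its antisense partner Sox6os stood at 0.05. Sox10, a neural crest factor, was at 0.17 ± 0.19 (adjusted p = 0.217), and Sox5 had the lowest mean at -0.09. Sox4, a factor of lymphocyte and heart development, was at -0.01 ± 0.09, and Sox2, a pluripotency factor, at 0.09.

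T-box factors direct mesoderm and heart development, and of 8 tested none passed, and 1 was higher at an unadjusted p under 0.05. Among all features 14.8% passed, and 13.3% were higher without adjustment. Tbx20, a heart factor, had the third largest absolute mean among the 111 tested members, 0.38 ± 0.45, yet adjusted p = 0.171. Its ratios were 0.16, -0.11 and -1.41 with treated RNA in Cy5 and -0.09, 1.90 and 1.85 with treated RNA in Cy3. The swapped arrays of sets 2 and 3 were high and the unswapped array of set 3 low, so the 2 arrays of each set disagreed in sign. Tbx21, the T-bet gene of T helper and natural killer cells, was at 0.02. The other tested members of the family lay between -0.15 and -0.01, with Tbx18 (-0.15 ± 0.18, adjusted p = 0.257) and Tbx15 (-0.13 ± 0.11, adjusted p = 0.191) the lowest.

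Gata factors, named for the GATA motif, steer blood and gut lineages. All 5 tested lay between -0.11 (Gata3, a T cell factor) and 0.09 (Gata4) and did not pass. Gata2, a factor of blood stem cells and mast cells, had values on 4 arrays with a mean of -0.07. LIM-homeobox genes (Lhx) ranged from -0.06 (Lhx8) to 0.07 (Lhx5) over 5 tested, and Nkx genes from -0.13 (Nkx2-4) to 0.11 (Nkx6-2) over 11. None of these 3 families held a call by limma, and 0 of their genes had an unadjusted p under 0.05. Of all features 14.8% were called, and before adjustment 13.3% were higher and 14.8% lower.

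Both rises were in the Wnt family: 2 of 14 tested members were higher and 0 lower, while 1 was lower at an unadjusted p under 0.05. With 14.3% called, Wnt was near the 14.8% of all features called in either direction. Before adjustment 14.8% of all features were lower. Wnt10a encodes a ligand of tooth and skin appendages. On the arrays of sets 1, 2 and 3 with treated RNA in Cy5 its ratio was 0.40, 0.14 and 0.38. The swapped arrays gave 0.53, 0.78 and 0.37. All 6 were high, with the widest gap between the arrays of set 2. The mean was 0.43 ± 0.05 (n = 3 sets, adjusted p = 0.00206). Both of its probes were measured on all arrays, and their means were 0.48 and 0.39. The ratios above average the 2 probes. By itself the second ran from -0.05 to 1.03 and was below zero on 1 array. Without the set 2 array with treated RNA in Cy5 the adjusted p was 0.0516, and without the other array of set 2 it was 0.0967. In either orientation alone it did not pass (adjusted p = 0.104 with treated RNA in Cy5 and 0.0561 with it in Cy3).

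Wnt10b, a ligand best known for holding back fat cell formation, rose by less. Its ratios were 0.19, 0.15 and -0.12 with treated RNA in Cy5, and 0.37, 0.20 and 0.64 on the swapped arrays. Those 6 were high on all but the unswapped array of set 3. The mean was 0.24 ± 0.06 (adjusted p = 0.0219). The call was lost without set 1 (adjusted p = 0.0845), without set 3 (adjusted p = 0.199) and without any single array (adjusted p from 0.0611 to 0.505). With the replicate block on single arrays the adjusted p was 0.0647. A second Wnt10b probe had values on the arrays of set 1 alone, -2.25 and 1.98, and with both probes together Wnt10b stood at 0.17 (adjusted p = 0.125).

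Among the other Wnt genes measured on all arrays, Wnt5b was the lowest at -0.20 ± 0.09 (adjusted p = 0.0515), just outside the threshold. Its set means were -0.29, -0.21 and -0.11, while single arrays ran from -0.72 to 0.14. Its second probe, with values on 4 arrays, also had a mean of -0.20. Wnt5a, a ligand of the branches that bypass β-catenin, had 2 probes at -0.12 and -0.11 and did not pass. The second of them leaned to Cy5 on all 6 arrays (0.39). Wnt4, measured on 5 arrays, was at -0.24, with ratios from -0.59 to 0.27. The means of Wnt1 on its 2 probes were -0.10 and 0.11.

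**Figure D2:**
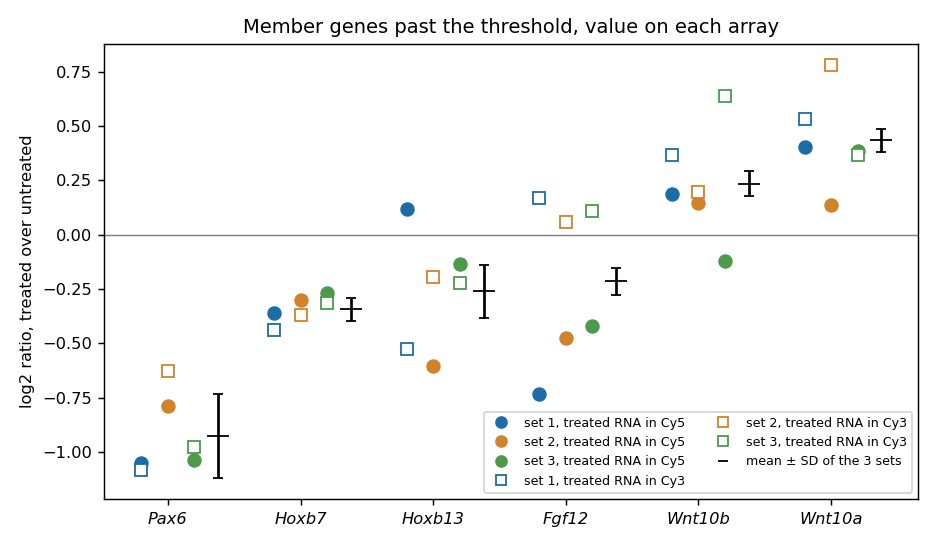
Log2 ratio of treated over untreated on each of 6 arrays for the 6 called member genes. Colours mark sets, filled circles arrays with treated RNA in Cy5, open squares arrays with it in Cy3, and black bars the mean ± SD of the 3 sets. Pax6, Hoxb7 and Wnt10a (the mean of 2 probes) lie on 1 side of zero on all arrays, while Fgf12 divides by dye.

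Fgf genes encode growth factors, and of 19 tested 0 rose and 1 fell, while 1 was higher and 3 were lower before adjustment. The share called was 5.26%, against 14.8% of all features. Before adjustment 13.3% of all features were higher and 14.8% lower. The Fgf gene that fell was Fgf12, one of the family's intracellular members that bind sodium channels. With treated RNA in Cy5 it had ratios of -0.73, -0.47 and -0.42, and with treated RNA in Cy3 of 0.17, 0.06 and 0.11. The first 3 were low and the last 3 high, with no overlap. The mean of -0.21 ± 0.06 (adjusted p = 0.0332) averages both orientations, beside a mean lean of -0.33, toward Cy3. With treated RNA in Cy5 alone Fgf12 was at -0.54, and with it in Cy3 alone its sign turned to 0.11. Within 1 orientation, lean and treatment cannot be told apart. Its set means, -0.28, -0.21 and -0.16, were nonetheless close. Without set 1 or set 3 the adjusted p was 0.109 and 0.156, and without each of 5 single arrays it was from 0.110 to 0.718. A second Fgf12 probe, measured on 5 arrays, divided by dye the other way, with 0.35 and 0.24 against -0.11, -0.54 and -0.52. With both probes Fgf12 stood at -0.22 (adjusted p = 0.0835). The second probe had a mean of -0.11 by itself. It had no value on the set 1 array with treated RNA in Cy5, where the first probe stood alone at -0.73.

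The rest of the family did not pass. Fgf1 was the highest at 0.14 ± 0.05 (adjusted p = 0.113), and Fgf2, known for acting on vessels and fibroblasts, was at 0.10 ± 0.03 (adjusted p = 0.204). Fgf20 was the lowest of those not called, at -0.13 ± 0.09 (adjusted p = 0.166). Fgf7, a growth factor for epithelium, lay at -0.13 ± 0.04 (adjusted p = 0.131). The hormone-like Fgf23, Fgf21 and Fgf15 were between -0.03 and 0.04. Second probes of Fgf3 (5 arrays) and Fgf2 (4 arrays) had means of -0.20 and -0.15.

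Genes that work with these families were taken from lists of textbook members. The lists were chosen with earlier results of these data known, so the shares called in them are descriptions only. Over all features the share was 14.8% (7.35% higher and 7.45% lower). Of 41 tested Wnt pathway genes other than ligands, 1 was higher and 4 were lower (12.2% called, list median -0.01). Ctnnb1, which encodes β-catenin, rose (0.43 ± 0.07, adjusted p = 0.00275), and Ctnnbip1, which encodes an inhibitor of β-catenin, fell (-0.32 ± 0.03, adjusted p = 0.00572). The co-repressor gene Tle1 (-0.36 ± 0.06), the receptor gene Fzd2 (-0.33 ± 0.09) and Pygo2 (-0.19 ± 0.05) also fell. Of 16 Fgf pathway genes 12.5% were called: Ptpn11, a phosphatase gene, rose (0.27 ± 0.10) and the Ets factor gene Etv5 fell (-0.38 ± 0.04). The receptor genes Fgfr1, Fgfr3 and Fgfr4 did not pass.

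Partners of the transcription factors were listed likewise. Among 11 tested partners of Lhx and Gata factors, 4 fell and 0 rose by limma (36.4% called; 7 and 0 before adjustment, where 14.8% of all features were lower), and the list median was -0.16. Lyl1 (-0.68 ± 0.12, adjusted p = 0.000859) and Tal1 (-0.43 ± 0.08), helix-loop-helix factors of blood cells, fell on 6 of 6 arrays. So did Ldb1 (-0.33 ± 0.02), whose protein joins LIM factors to each other, and Lmo2 (-0.21 ± 0.06). Of 19 Hox cofactors and Polycomb or Trithorax genes, the Polycomb gene Rnf2 rose (0.38 ± 0.11), and Cbx2, Meis2 and Pbx2 fell (21.1% called). Of 37 other homeobox and developmental factors, 0 rose and 4 fell by limma (10.8% called; 3 and 5 before adjustment), led by Dlx1 (-0.65 ± 0.05, adjusted p = 0.000394, 6 of 6 arrays), and Irx2, Irx5 and Six4 followed. Among 14 other morphogens and antagonists only the Notch ligand gene Jag2 passed (-0.20 ± 0.07, adjusted p = 0.0447). As for cell type markers, of 7 macrophage genes Adgre1 (0.83 ± 0.07) and Spi1 (0.47 ± 0.12) rose, and Fcgr1 (-0.47 ± 0.09) and Csf1r (-0.21 ± 0.07) fell. Of other lineages, 0 of 4 fibroblast, 0 of 3 epithelial, 0 of 5 endothelial and 0 of 6 lymphocyte genes passed by limma, with 1, 0, 1 and 2 of them at an unadjusted p under 0.05. Of 5 pluripotency and neural genes Nes rose (0.36 ± 0.06).

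Noise was measured as the spread between sets. The median SD between the 3 set means was 0.119 for members and 0.0836 for all features. A second spread follows the channels. The mean deposited ratio of the 2 arrays of a set, in which treatment cancels, is called the dye lean here and is positive toward Cy5. Its median SD between sets was 0.177 for members and 0.0867 for all features. In 86 of 111 members (77.5%) the lean varied more between sets than the treatment ratio did, against 51.6% of all features. Wnt and Fgf genes had a median SD of 0.0888 for the treatment ratio and 0.174 for the lean, and the transcription factors 0.122 and 0.180. Here and below, that last group is all members outside Wnt and Fgf, with the antisense transcripts in it.

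**Figure D3:**
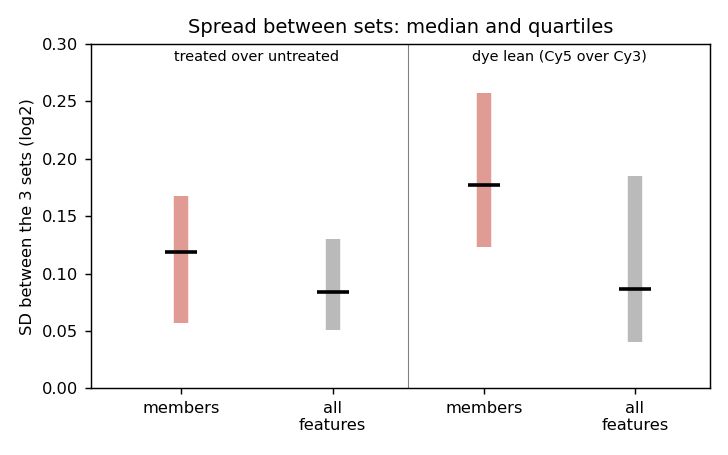
SD between the 3 sets of the treatment ratio (left pair) and of the dye lean (right pair), for 111 members (red) and 11231 features (grey). Bars span the quartiles and black lines mark medians. The medians are 0.119 and 0.0836 for the treatment ratio, and 0.177 and 0.0867 for the lean.

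Within a set, a lean puts both arrays on the same side of zero before signs are turned, and a response puts them on opposite sides. Both arrays leaned to the same channel for 80 members (72.1%) in set 1, 79 (71.2%) in set 2 and 62 (55.9%) in set 3. The shares over all features were 49.8%, 56.7% and 43.9%. Across the 111 members the deposited ratios of the arrays of a set correlated with Pearson's r = 0.766, 0.431 and 0.325 in sets 1, 2 and 3. Over all features these were -0.272, -0.124 and -0.648. Without Pax6, Sox3 and Tbx20, chosen after their values were seen, the members gave 0.648, 0.497 and 0.211. These correlations run across genes that share arrays, and genes are not independent replicates. Set 3 was the quietest: the median absolute ratio of member probes was 0.138 and 0.133 on its arrays, near the 0.137 and 0.134 of all probes. On the arrays of set 2 it was 0.226 and 0.352 (all probes 0.202 and 0.245), and on those of set 1 0.285 and 0.205 (all probes 0.179 and 0.164).

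**Figure D4:**
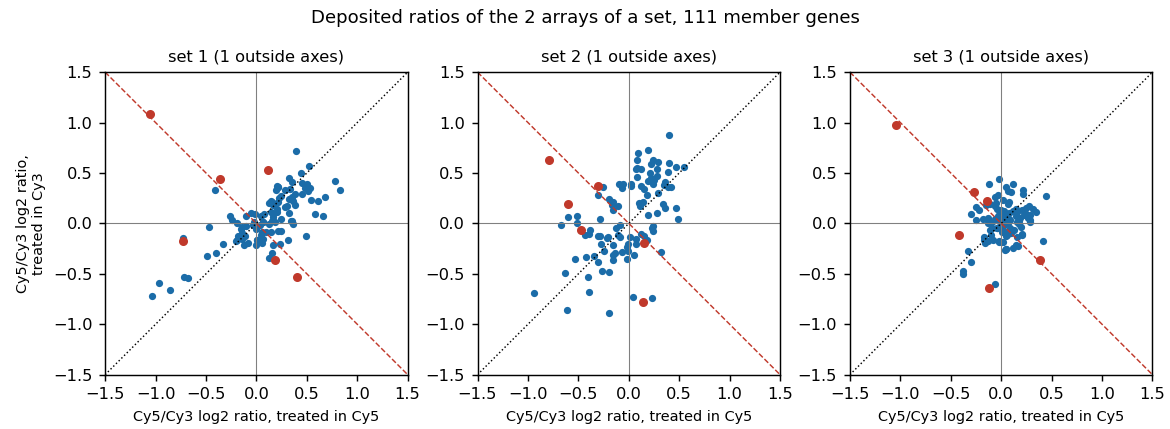
Deposited Cy5 over Cy3 log2 ratio of the 111 members on the array with treated RNA in Cy5 (x axis) against the swapped array of the same set (y axis). Points along the dotted line follow the channels, points along the dashed red line follow the treatment, and red points are the 6 called genes. Members stretch along the dotted line in sets 1 and 2 and cluster around zero in set 3, with Pax6 near the dashed line each time.

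The lean had 1 sign in all 3 sets for 40 of 111 members (36.0%), 28 toward Cy5 and 12 toward Cy3, against 52.1% of all features. Among the members whose lean varied most between sets, Hoxd3os1 leaned by -0.61, 0.55 and -0.34 in sets 1 to 3, and Wnt2 by -0.63, 0.64 and -0.44, so both were toward Cy3 in sets 1 and 3 and toward Cy5 in set 2. Nkx6-3 leaned by -0.76, 0.45 and 0.36. The treatment ratios of these 3 genes averaged -0.01, -0.09 and -0.06. The largest lean among tested members was that of Sox3, -3.78, -0.74 and -0.17 in sets 1 to 3, beside a mean treatment ratio of 0.01 ± 0.11. Tbx20 leaned by -0.84 ± 0.89 (SD of 3 sets).

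Tested like the treatment, with the 3 set leans against zero, 0 members leaned to Cy5 and 0 to Cy3 by limma (smallest adjusted p = 0.174), as did 0% of all features. At an unadjusted p under 0.05, 12 members leaned to Cy5 and 4 to Cy3 (10.8% and 3.60%, against 11.2% and 10.9% of all features). When single arrays were fitted with no replicate block, Gata3 passed with a lean to Cy5, and with the block none did. A deposited ratio of 1 sign on 6 of 6 arrays was seen in 11 members (9.91%), against 13.1% of all features. The mean lean was above zero for 55 of 78 transcription factors (antisense transcripts included), with a median of 0.07. It was above zero for 10 of 33 Wnt and Fgf genes, with a median of -0.07. Over all features 50.4% were above zero. In 77 members (69.4%) the mean lean was larger in size than the mean treatment ratio, and in 52.3% of all features.

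Probes of 1 gene disagreed more in lean than in response. Among the 15 members with 2 probes measured on all arrays, the treatment means of the probes differed by a median of 0.08 and at most 0.24 (Fgf21), followed by Wnt1, Sox6, Fgf11 and Wnt7b. Their leans differed by a median of 0.18 and at most 0.54, and in 9 of the 15 the probes leaned to opposite channels. The pair for Fgf18 leaned by 0.26 and -0.28, and had treatment means of 0.05 on either probe. Over 1645 named genes with 2 such probes, the medians were 0.07 for the treatment and 0.14 for the lean. How many of those genes had probes with opposite leans was not counted, so the 9 of 15 has no share beside it.

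Zeros were spread unevenly over the families. They filled 13.8% of the values of member probes (exact 95% binomial interval 11.7% to 16.1%, for counting error only). That interval takes every value as independent, while zeros fell together on the same probes, so it is too narrow to compare shares. The share was 10.8% of all values and 8.36% of the values of other named probes. Zero on all arrays stood 10 member probes (5.95%), close to 6.13% of all probes but above 3.52% of other named probes. Values on 1 to 5 arrays were found for 32 (19.0%, against 12.6% of all probes and 12.9% of other named probes). The Fgf family held 78 of the 139 zeros, 31.0% of its values, and 8 of the 10 empty probes. The other 11 families held 61 zeros in 756 values (8.07%), below the share over all values and near the 8.36% of other named probes. Sox and Hoxb probes held 0 zeros. For 19 genes no probe was complete, and among them Fgf9 and Pax3 had no value at all. Fgf16, Fgf22, Nkx2-1 and Pax7 had a value on 1 array, Lhx1 on 3, Gata2, Hoxa3, Hoxc5 and Wnt11 on 4, and Hoxa13, Hoxc8, Hoxd12, Hoxd13, Lhx3, Lhx6, Tbx5 and Wnt4 on 5.

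**Figure D5:**
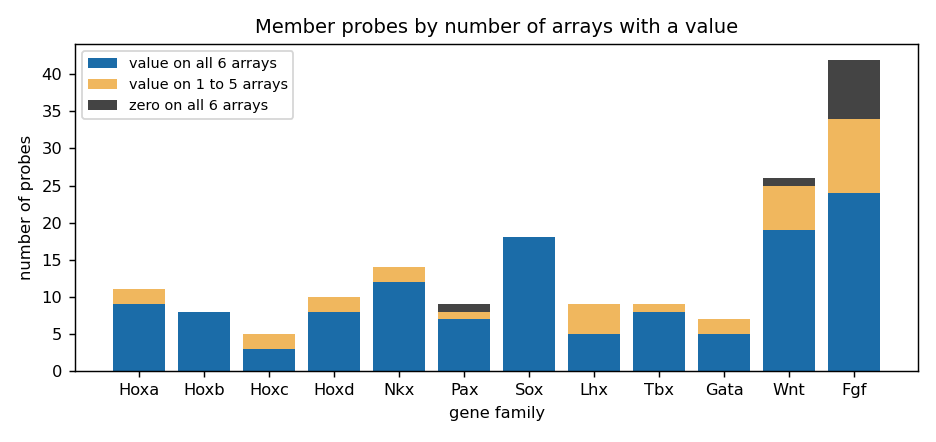
Number of member probes in each family with a value on all 6 arrays (blue), on 1 to 5 arrays (orange) or on none (black). The Fgf family has 42 probes, of which 24 are complete and 8 empty, and all 18 Sox and all 8 Hoxb probes are complete.

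The gaps were compared within and between sets. Where a partly measured member probe lacked a value in a set, it lacked it on both arrays of that set in 27 of 52 cases (51.9%), and over all probes in 41.8%. For arrays of different sets the same share was 26.9% among members and 22.7% over all probes. Several probes measured on few arrays carried large leans. The 2 probes of Lhx3, on 3 and 5 arrays, had treatment means of 0.12 and -0.11. Lhx1, a LIM factor of kidney and head, had ratios of -4.76 and -2.57 on the arrays of sets 1 and 3 with treated RNA in Cy5, and 4.68 on the swapped array of set 1. All 3 deposited ratios were toward Cy3, and the lean of set 1, which has both arrays, was -4.72. In set 3 only 1 array had a value, so lean and treatment cannot be told apart there. Probes of Fgf4 (-2.41 and 1.82), Fgf1 (-1.83 and 1.72) and Wnt10b were measured in set 1 alone and leaned to Cy3 on both arrays, with mean leans of -2.12, -1.77 and -2.12. The complete probes of Fgf4, Fgf1 and Wnt10b leaned by 0.12, -0.23 and -0.16. Mean treatment ratios of the first 3 probes were -0.30, -0.05 and -0.13.

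Promoter windows of called genes are shown where they hold a match to the κB or AP-1 motif, whose factors LPS is known to activate. Windows of the 250 bases before annotated starts came from RefSeq (GRCm38.p6), where 93 of the 130 member genes had 118 windows. Hoxb7, Hoxb13 and Wnt10a were not matched. Both strands were searched for the κB consensus of NF-κB, the AP-1 site TGANTCA, the cAMP response element TGACGTCA, the TATA box TATAAA and the CCAAT box CCAAT. Capitals mark the matches; those of different motifs do not overlap here. The windows belong to 1 of 2 Pax6 starts, to Wnt10b and to 1 of 4 Fgf12 starts.
Pax6, chr2:105668646-105668895, plus strand: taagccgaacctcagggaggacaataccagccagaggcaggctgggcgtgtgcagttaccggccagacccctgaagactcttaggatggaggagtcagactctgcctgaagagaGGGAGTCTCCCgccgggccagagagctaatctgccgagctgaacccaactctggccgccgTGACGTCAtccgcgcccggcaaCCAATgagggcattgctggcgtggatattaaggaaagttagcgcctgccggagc
Wnt10b, chr15:98778151-98778400, minus strand: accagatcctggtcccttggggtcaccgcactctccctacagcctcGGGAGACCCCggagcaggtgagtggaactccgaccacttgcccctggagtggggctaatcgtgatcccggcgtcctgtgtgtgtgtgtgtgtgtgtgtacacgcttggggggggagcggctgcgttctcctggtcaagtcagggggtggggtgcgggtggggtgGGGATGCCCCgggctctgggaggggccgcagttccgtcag
Fgf12, chr16:28446076-28446325, minus strand: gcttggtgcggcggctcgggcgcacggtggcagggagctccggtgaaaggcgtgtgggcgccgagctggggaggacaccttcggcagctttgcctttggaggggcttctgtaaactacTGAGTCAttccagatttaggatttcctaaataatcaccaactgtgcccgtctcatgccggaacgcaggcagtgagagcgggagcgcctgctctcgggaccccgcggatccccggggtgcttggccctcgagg

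The Pax6 window held 2 overlapping κB matches from -136 to -126 before the start, a cAMP response element from -76 to -69 and a CCAAT box from -54 to -50. That of Wnt10b held κB matches from -204 to -195 and from -40 to -31. The other Pax6 window held no match, the Fgf12 window shown held an AP-1 match from -132 to -126, and 1 other of its 4 windows held a pair of CCAAT boxes. A κB match was found in 6 member windows (5.08%) and 3.90% of 32851 windows of all genes, AP-1 in 5.08% and 6.75%, and the cAMP response element in 0.85% (Pax6) and 1.55%. TATA boxes were in 8.47% and 12.4%, and CCAAT boxes in 36.4% and 33.9%. Member windows were rich in CpG: 60.2% had an observed over expected CpG ratio above 0.6, against 34.0% of all windows, and their median GC content was 60.8% against 52.4%. A match is a sequence description, and binding was not measured.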

How the data were processed

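The authors deposited 1 table of log2 ratios, 1 value per probe and array. Their base was read from the decimals: 87.3% to 92.8% of non-zero values per array have at most 7 decimals once turned into log10. Normalization, background correction, scanner software and genome build: not given in the sources used here. Ratios were read as Cy5 over Cy3, which the channel labels make likely, and the LPS genes, which are higher under this reading, were used to settle it. Probes were named through the platform annotation, and all 168 member probes matched RefSeq by gene ID. Arrays have no read depth, and their number limits the precision.

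The 3 set means were tested against zero by limma 3.58.1 (lmFit, eBayes; R 4.3.3), two-sided, with Benjamini-Hochberg adjustment over 11231 features and a threshold of 0.05. Turned signs give the treatment and deposited signs the dye lean. The code was tested on simulated data, where 35.4% of changes of 0.3 in log2 were recovered. Set numbers were taken to pair the arrays, since within each orientation the deposited ratios, less the orientation's mean, correlated across features between arrays of one number (r = 0.405, 0.434 and 0.137). Alternative fits to single arrays had a dye term, with a consensus correlation of 0.0552 for the replicate block. By rule, the text names members past the threshold, the 10 largest not past it, family extremes, probe pairs that differ most, the 10 largest means of probes measured on 3 to 5 arrays, and called genes of the lists; genes named for lean, zeros or role were chosen after their values were seen. Members and lists were chosen with earlier results of these data known. Leave-outs, scalings and rules for zeros were tried as alternatives. Spot intensities were not used here.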

Additional observations from a re-analysis of the deposited data

Results flagged for a closer look

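For 11 members, every array with treated RNA in Cy5 and every swapped array gave treatment ratios of opposite sign, which is a lean to 1 channel. This pattern was less frequent among members (9.91%) than among all features (13.1%). The difference between orientations was tested with limma as the dye lean, and none of the 11 passed (smallest adjusted p = 0.174). The leans to Cy3 were -1.56 for Sox3, -0.59 for Fgf17, -0.33 for Fgf12 and -0.19 for Wnt1. The leans to Cy5 were 0.17 for Nkx2-6, 0.23 for Sox1, 0.30 for Hoxd1, 0.31 for Gata3, 0.31 for Sox4, 0.36 for Nkx2-3 and 0.39 for Wnt2b. Of these, Fgf12 is the only one among the 6 called genes. With arrays of treated RNA in Cy3 alone, Fgf17 passed as higher, and Gata3 and Wnt2b as lower, none of which passed over both orientations.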

How the results depend on the processing

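Main counts are 2 higher and 4 lower members. They fell to 1 and 2 with missing values allowed, and to 1 and 3 with zeros as measured ratios. On arrays with treated RNA in Cy5 alone they were 0 and 2. On those with it in Cy3 alone they were 1 and 4, but only 2 of the 6 main calls, Pax6 and Hoxb7, were among them. In a test against a 1.5-fold change both counts were 0. The shares of all features called higher and lower, 7.35% and 7.45% in the main fit, also fell. They were 6.06% and 5.69% with missing values allowed, and 3.72% and 3.55% with zeros as measured ratios. The Cy5 arrays alone gave 3.09% and 2.6%, the Cy3 arrays alone 3.63% and 2.2%, and the 1.5-fold test 1.1% and 0.151%. Leaving out a set or array gave 0 to 2 higher and 1 to 3 lower members. Without set 3 the member counts were 1 and 1 (3.13% and 1.88% of all features). Without the set 2 array with treated RNA in Cy5 they were 0 and 1 (3.13% and 1.61% of all features). Pax6 passed in every alternative but the test against 1.5-fold. On arrays with treated RNA in Cy3 alone Fgf12 reversed to 0.11. Centring or scaling the arrays kept all 6 calls. With the replicate block on single arrays 2 were higher and 3 lower, 4 of them among the 6: Hoxb13 and Wnt10b did not pass and Sox13 did, with the same 5 genes called when single arrays had no replicate block. No member passed for a dye lean, except Gata3 (1 gene, to Cy5) on single arrays with no replicate block. The median SD of members was 0.263 over 6 single arrays, against 0.119 between sets. The share of zeros was 12.7% to 14.9% without each set in turn. Without intensities, signal over background is unknown, and 3 sets limit what small changes can be called.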

Other observations

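The lean of a member probe also went with the kind of sequence record that the platform annotation gives for it, a pattern noticed in the data and not tested. Among complete member probes, 8 of 26 with a RefSeq mRNA record leaned to Cy5 (median lean -0.07), against 65 of 100 with another GenBank record (median 0.07). For Wnt and Fgf probes it was 2 of 17 with a RefSeq record and 12 of 26 with another. For the transcription factors the shares were close, 6 of 9 and 53 of 74 (66.7% and 71.6%). Over the other named probes 41.5% of 2986 with a RefSeq record leaned to Cy5 and 53.6% of 8353 with another. Median treatment ratios of the 2 kinds of member probe were 0.01 and -0.01.

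The probes annotated to both Hoxd9 and Hoxd10 had mean treatment ratios of 0.04 and -0.04 and leans of 0.23 and 0.09, and the first leaned to Cy5 on all 6 arrays.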
